A study of Mus musculus with 9 samples.

Results

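The comparison set 66cl4 mouse mammary carcinoma cells carrying a short hairpin against Eya3 beside the same line carrying a scramble hairpin, both with an empty vector. Its members were chosen by the arm named in the labels and are 6 of the 9 libraries of the series, 3 per arm. All genes with enough counts were described, which was 16766 of 52208 in the table. The scramble cells carried the scramble short hairpin and the empty vector. The knockdown cells carried the Eya3 hairpin and the same vector. The remaining 3 libraries came from cells with the same Eya3 hairpin plus IKK2-SE, a kinase of the NF-kB pathway made constitutively active. They took part in the filter on low counts and in the scaling, and shared the estimate of spread. With only the 6 compared libraries fitted, 16294 genes had enough counts. All cells were kept under puromycin after transduction and selected on mCherry, so every arm carries an integrated hairpin and a marker. There was 1 Eya3 hairpin and 1 scramble hairpin, and a difference between the arms cannot be told apart from a difference between these 2 transduced populations. The sample titles call the hairpin KD2 and the table's columns call it KD3. The titles call the libraries biological replicates, but whether each was transduced on its own is not in the labels. The p-values therefore cover spread between replicate cultures that may share a transduction.

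Eya3 encodes a member of the Eyes absent family, proteins that act as transcriptional coactivators and carry a phosphatase domain. They have no DNA-binding domain of their own and are recruited to genes by DNA-binding partners, while Dach proteins act in the same network as corepressors. Eyes absent proteins are known for roles in organ development and in the DNA damage response, and are often raised in tumours.

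Counts per library ran from 63601403 to 81534534 over the 6 libraries. Levels are counts-per-million (CPM) scaled by TMM, given as mean ± SD with n = 3 where not given by library, and changes are log2 differences, knockdown minus scramble, ± SE. A gene was called at an edgeR quasi-likelihood adjusted p under 0.05. Of the tested genes 9643 (57.5%) were called, 4636 (27.7%) higher and 5007 (29.9%) lower, and the median change of all tested genes was -0.001. The 3 libraries of each arm did not overlap in 63.6% of tested genes. At this level of background a call alone sets few genes apart, so a second call, of at least 2-fold, was used beside it: 889 genes (5.3%) were at least 2-fold higher and 1569 (9.36%) at least 2-fold lower. These shares are the background for every count of list members below. In bulk samples, fewer cells of a type and less RNA per cell cannot be told apart. The scatter of gene levels shows that many of the large changes ran between clear expression and almost none.

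**Figure D1:**
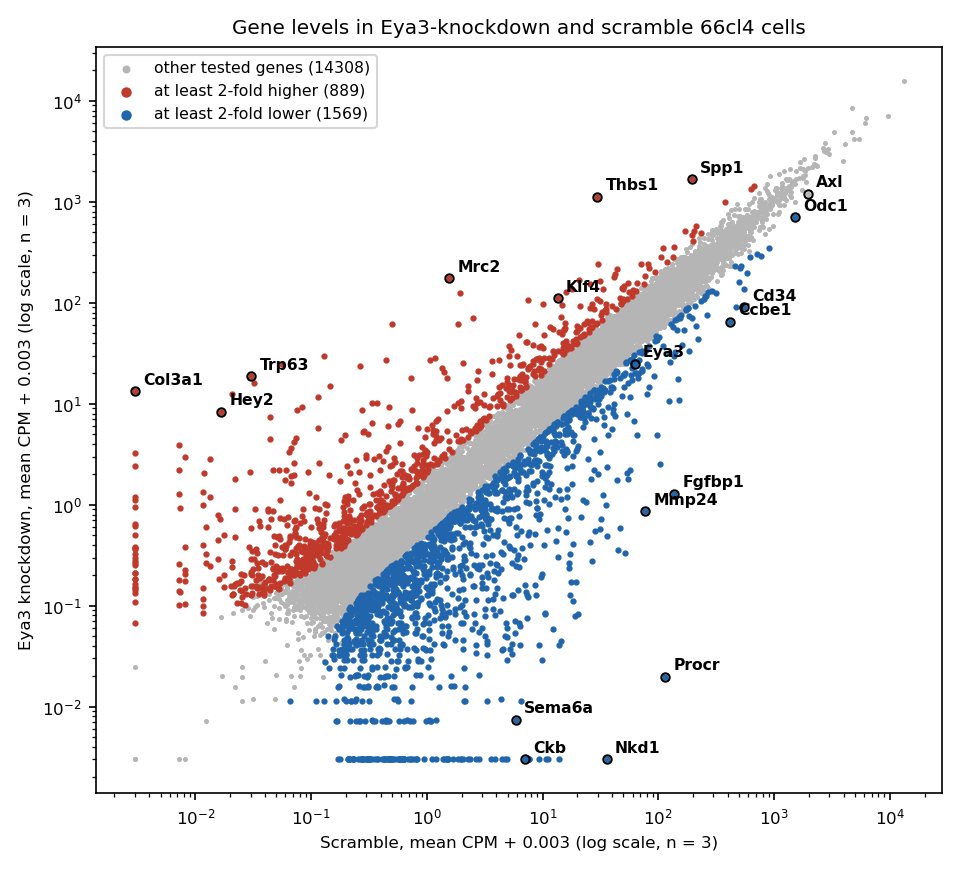
Mean level of each tested gene in scramble (x axis) and knockdown (y axis) cells, both as CPM + 0.003 on a log scale, 3 libraries each. Red and blue points are the 889 genes called at least 2-fold higher and the 1569 called at least 2-fold lower. Points along the bottom edge, such as Nkd1 and Ckb, had no or almost no counts in the knockdown arm, and points along the left edge, such as Col3a1 and Hey2, had none or almost none in the scramble arm.

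The labelled cell type was checked against markers of mammary epithelium and of other cells. Of 12 luminal and epithelial markers 6 were tested, of which 2 rose and 2 fell. Krt8, a luminal keratin, went from 628 ± 29.6 to 1329 ± 68.3 CPM and Krt7 from 1.37 ± 0.159 to 2.06 ± 0.116 CPM, while Krt19 fell from 0.606 ± 0.350 to 0.0595 ± 0.0376 CPM and the tight junction gene Ocln fell from 0.810 ± 0.315 to 0.143 ± 0.120 CPM. Krt18, the usual partner of Krt8, was near 0 in every library and the epithelial adhesion genes Epcam and Cdh1 had at most 5 and 8 counts in any of the 6 libraries. The line is labelled triple negative. Pgr had no counts, whereas Esr1 went from 11.8 ± 0.582 to 16.4 ± 1.18 CPM and Erbb2 from 55.4 ± 2.66 to 63.5 ± 2.76 CPM, and both were called higher. Of the 12 macrophage markers listed, 5 were tested, of which 3 fell and 0 rose, and their summed level ran from 51.9 to 55.2 CPM in scramble and 27.3 to 31.1 CPM in knockdown libraries, with the defining markers Adgre1, Aif1 and Tyrobp at 0. Of 10 endothelial markers 5 were tested, 1 rose and 2 fell, with summed levels of 5.15 to 6.06 CPM and 0.718 to 1.17 CPM and Cldn5 at 0. Of 11 fibroblast markers 7 were tested, 4 rose and 3 fell, with Thy1 at 0. All 4 that rose were at least 2-fold higher, 1 was at least 2-fold lower, and the median change was 2.52. The summed level of the list moved the other way. It ran from 231 to 239.6 CPM in scramble and 95.9 to 103 CPM in knockdown libraries. Of 12 lymphocyte markers 2 were tested and neither was called, at summed levels under 1 CPM. Of 10 basal and myoepithelial markers 7 were tested, of which 3 rose, 1 fell and 3 were not called. Their sums were 26.2 to 30.9 CPM in scramble and 111 to 123 CPM in knockdown libraries. Itgb4, described below, made up most of both, and Trp63 had a mean of 18.8 CPM in knockdown but 0.0274 CPM in scramble cells. The basal keratins Krt5 and Krt14 went from 0.0453 ± 0.0448 to 0.320 ± 0.149 CPM and from 1.24 ± 0.0461 to 0.305 ± 0.161 CPM. Of 15 tested genes that track RNA quality 1 rose, mt-Nd3 by 0.92 ± 0.17, and 1 fell, Malat1 by 0.50 ± 0.13. The part of these markers in the results was not tested.

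Changes were shared along stretches of some chromosomes. Genes were taken in chromosome order and the median change of the 40 nearest tested genes was computed for each. It was at least 0.3 from 0 for 13.8% of tested genes. In all, 19 runs of 40 or more consecutive genes had such a neighbourhood, 12 shifted up and 7 down, holding 1755 genes. The longest were on chromosome 10, where 338 genes from Ube2d1 to Gm8942 (71254980 to 115270377, GRCm38) had a median change of -0.59, 246 of them lower and 13 higher, and the next 145 genes on the same chromosome had a median of -0.47. Chromosome 17 had a median of 0.31 over 767 genes and chromosome 3 one of 0.25 over 869, whereas chromosome 9 had -0.01 over 887. The neighbours' median is therefore given with each gene below for which it is at least 0.3 from 0. Among the genes called at least 2-fold, such a shift is a larger share of a log2 change near 1 than of one of 2 or more.

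**Figure D2:**
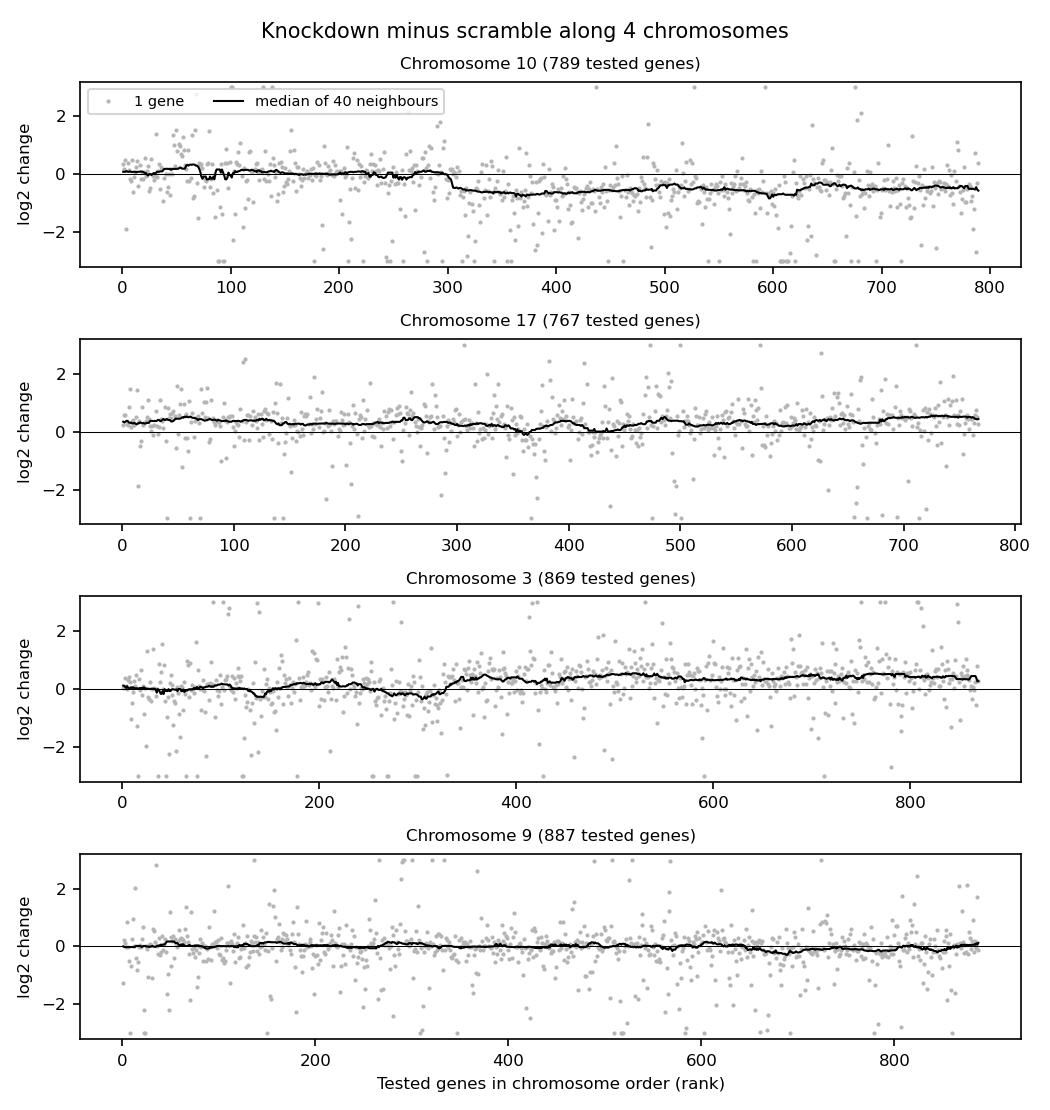
Change of each tested gene (grey points, log2, knockdown minus scramble, drawn at ±3 where larger) and median of its 40 neighbours (black line) against the rank of the gene along chromosomes 10, 17, 3 and 9. The line lies below 0 over most of the later part of chromosome 10, above 0 over long stretches of chromosomes 17 and 3, and near 0 along chromosome 9.

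The genes of the Eyes absent network were examined first, since Eya3 is the target of the hairpin. Eya3 (chromosome 4, 132638987 to 132724765, plus strand) was at 63.0, 64.1 and 60.9 CPM in the scramble libraries and 25.3, 25.3 and 24.3 CPM in the knockdown libraries. It fell by 1.33 ± 0.06 (edgeR adjusted p = 5.97e-12), to 0.399 of its scramble level, with no overlap between the arms. Eya1, a paralogue, was at 60.4, 61.9 and 65.3 CPM in the scramble libraries and 23.7, 26.5 and 27.5 CPM in the knockdown libraries, and fell by 1.27 ± 0.06 (edgeR adjusted p = 1.1e-11). The fall of Eya1 was thus of similar size to that of the target. The other paralogues were low: Eya2 went from 0.0858 ± 0.0753 to 0.456 ± 0.146 CPM and Eya4 from 0.239 ± 0.00852 to 0.438 ± 0.0989 CPM, both called higher. The call of Eya4 (edgeR adjusted p = 0.0306) was lost without scramble replicate 1, 2 or 3 or knockdown replicate 2 or 3, with adjusted p up to 0.118. Among homeobox genes of the network, Six4, with means from 29.1 ± 1.22 to 31.5 ± 1.93 CPM (scramble to knockdown), was not called (edgeR adjusted p = 0.0946). Six3 rose by 1.06 ± 0.07, from 32.5 ± 0.878 to 67.9 ± 5.49 CPM, in a stretch with a neighbours' median of 0.51, and Six5 rose by 0.37 ± 0.09. Dach1 fell from 0.548 ± 0.115 to 0.0251 ± 0.0250 CPM.

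Transcripts that were present in one arm and without a single count in the other made up the extreme of the comparison. In all, 37 tested genes had at least 1 CPM in one arm and no count in the other, 32 of them silent in the knockdown cells and 5 in the scramble cells. Promoters are shown for Nkd1 and Ckb, silent in the knockdown cells, Col3a1, silent in the scramble cells, and Hey2, which had 0 to 2 counts in each scramble library. They are shown because the results turn on genes that are on in one population and off in the other, and because the density of CG dinucleotides separates promoters that are usually unmethylated from those that are not. Nkd1 is an antagonist of Wnt signalling, Ckb the brain form of creatine kinase, Col3a1 a fibrillar collagen, and Hey2 a repressor downstream of Notch. Each line gives the 250 bases before the transcription start that RefSeq holds for the gene (GRCm38.p6), 5′ to 3′ on the gene's strand, with each CG dinucleotide in capitals.
Nkd1 (chr8:88527383-88527632, plus strand): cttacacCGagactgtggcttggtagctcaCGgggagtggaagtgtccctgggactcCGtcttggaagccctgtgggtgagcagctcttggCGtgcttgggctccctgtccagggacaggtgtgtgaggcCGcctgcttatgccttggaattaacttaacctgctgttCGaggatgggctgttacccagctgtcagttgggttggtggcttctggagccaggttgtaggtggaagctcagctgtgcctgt
Ckb (chr12:111672339-111672588, minus strand): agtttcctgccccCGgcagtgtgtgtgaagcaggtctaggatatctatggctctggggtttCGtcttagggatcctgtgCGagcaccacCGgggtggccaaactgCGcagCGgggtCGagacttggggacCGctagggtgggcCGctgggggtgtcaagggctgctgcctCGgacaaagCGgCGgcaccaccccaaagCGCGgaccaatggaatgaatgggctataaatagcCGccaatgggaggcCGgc
Col3a1 (chr1:45311288-45311537, plus strand): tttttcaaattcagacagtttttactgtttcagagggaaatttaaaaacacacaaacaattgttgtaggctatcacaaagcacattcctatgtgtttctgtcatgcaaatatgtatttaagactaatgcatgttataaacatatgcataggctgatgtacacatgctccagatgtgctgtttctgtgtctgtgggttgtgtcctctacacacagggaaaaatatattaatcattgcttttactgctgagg
Hey2 (chr10:30842784-30843033, minus strand): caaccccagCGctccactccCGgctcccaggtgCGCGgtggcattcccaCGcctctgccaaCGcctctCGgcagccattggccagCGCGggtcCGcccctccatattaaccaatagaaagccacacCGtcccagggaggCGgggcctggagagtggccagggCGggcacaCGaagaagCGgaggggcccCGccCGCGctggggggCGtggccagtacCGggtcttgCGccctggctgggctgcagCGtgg
The Nkd1, Ckb, Col3a1 and Hey2 sequences hold 6, 16, 0 and 22 CG dinucleotides. Genes silent in the knockdown arm therefore include a CG-poor window, as in Nkd1, and a CG-rich one, as in Ckb. The RefSeq start of Nkd1 lies inside the longer gene model of the GENCODE annotation given below, whose own start is not shown.

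RefSeq starts were matched by symbol for 10751 of the 16766 tested genes, with chromosome 18 left out. The 250 bases before the start held a median of 15 CG dinucleotides over all matched genes, 8 over the 561 matched genes called at least 2-fold higher and 8 over the 1004 called at least 2-fold lower. Both groups of strongly changed genes thus had fewer CG dinucleotides at the median than tested genes as a whole. The 22 matched genes without counts in the knockdown arm had a median of 8, and the 4 matched genes without counts in the scramble arm one of 2.5. The letters TATAAA, searched on both strands, stood in 6.88% of all matched windows, 12.5% of those of genes at least 2-fold higher and 10.4% of those at least 2-fold lower. A match describes the letters of this window and is not a site.

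Nkd1 (chromosome 8, 88521354 to 88594884, plus strand) was at 34.8, 36.0 and 36.5 CPM in the scramble libraries and 0 CPM in all 3 knockdown libraries, at least 2785-fold lower, taking 3 counts over the whole arm as the floor. Ckb (chromosome 12, 111669361 to 111672338, minus strand) was at 7.30, 6.91 and 6.76 CPM in the scramble libraries and 0 CPM in all 3 knockdown libraries, at least 545-fold lower, with a neighbours' median of 0.37 in the opposite direction. Col3a1 (chromosome 1, 45311538 to 45349706, plus strand) was at 0 CPM in all 3 scramble libraries and 13.3, 14.0 and 13.0 CPM in the knockdown libraries, at least 976-fold higher. These genes were picked for having no counts in one arm, and were at close levels in all 3 libraries of the other. Hey2 (chromosome 10, 30832359 to 30842801, minus strand) was at 0.0155, 0.0256 and 0 CPM in the scramble libraries and 8.58, 8.63 and 7.86 CPM in the knockdown libraries. The IKK2-SE arm, with the same Eya3 hairpin, had means of 0.0143 CPM for Nkd1, 0 for Ckb, 12.0 for Col3a1 and 6.05 for Hey2. Other genes silent in the knockdown arm were Tysnd1, a peroxisomal protease, from 11.1 ± 1.02 CPM and at least 868-fold lower, Pomgnt2, an enzyme of dystroglycan glycosylation, from 7.60 ± 0.608 CPM and at least 592-fold lower, Dnah7a, an axonemal dynein, from 13.9 ± 0.800 CPM and at least 1086-fold lower, and Xlr4b from 7.65 ± 0.414 CPM, whose reads may be shared with near-identical copies. Their lack of overlap between the arms follows from that choice. Serpina1c, an alpha-1 antitrypsin gene, was the second of the 5 that had counts in the knockdown arm alone, at least 236-fold higher (neighbours 0.59). Its relatives Serpina1a and Serpina1b rose by 6.96 ± 0.10 and 6.49 ± 0.18, but the near-identical copies of this family may share reads, and their neighbours' medians were 0.59 and 0.52.

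Receptors of the cell surface changed in both directions. Of 24 tested receptor tyrosine kinases, 9 rose and 11 fell (median 0.08), with 3 at least 2-fold higher and 4 at least 2-fold lower. Fgfr3, a fibroblast growth factor receptor, was at 2.63, 3.10 and 3.79 CPM in the scramble libraries and 0.0624, 0.0382 and 0.0399 CPM in the knockdown libraries, a log2 change of -6.03 ± 0.31 (edgeR adjusted p = 7.94e-11). Its relative Fgfr1 moved the other way, from 2.88, 2.70 and 2.46 CPM to 11.6, 11.3 and 11.2 CPM, a rise of 2.09 ± 0.08 (edgeR adjusted p = 3.1e-12). Pdgfrb, the beta receptor for platelet-derived growth factor and a fibroblast marker, rose by 2.52 ± 0.12, and Alk fell by 2.88 ± 0.25 against a neighbours' median of 0.43. Axl, a receptor for Gas6 chosen after its values were seen, fell by 0.71 ± 0.04, from 1967 ± 40.3 to 1205 ± 29.4 CPM. None of these 5 receptors, chosen for large changes or after their values were seen, overlapped between the arms. That was so for 63.6% of all tested genes. Among 14 ephrins and Eph receptors 4 rose and 7 fell: Epha4 went from 0.0103 ± 0.0179 to 2.80 ± 0.124 CPM, Efna5 rose by 1.32 ± 0.04 (neighbours 0.39), and Ephb6 and Efna3 fell by 1.01 ± 0.17 and 0.96 ± 0.10 (neighbours of Efna3 0.50).

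Guidance cues and their receptors fell more often than they rose. Of 34 tested semaphorins, plexins, netrins, slits and their receptors 9 rose and 19 fell, with a median of -0.35, and 12 (35.3%) were at least 2-fold lower against 9.36% of all tested genes. Ntn1, the secreted cue netrin 1, was at 26.9, 25.5 and 25.4 CPM in the scramble libraries and 0.512, 0.433 and 0.332 CPM in the knockdown libraries, a log2 change of -5.92 ± 0.13 (edgeR adjusted p = 2.05e-15). Sema6a, a membrane semaphorin, went from 5.84 ± 0.0820 to 0.00443 ± 0.00768 CPM, and its class 4 relative Sema4a fell by 2.98 ± 0.20. Plxnc1, a semaphorin receptor, fell by 5.30 ± 0.41 in a stretch with a neighbours' median of -0.57. A pair of secreted class 3 semaphorins, singled out after their values were seen, moved apart. Sema3c was at 77.6, 78.5 and 82.9 CPM in the scramble libraries and 12.3, 11.5 and 13.7 CPM in the knockdown libraries, a log2 change of -2.67 ± 0.07 (edgeR adjusted p = 9.84e-15), whereas Sema3a was at 31.4, 29.9 and 32.9 CPM in the scramble libraries and 159, 165 and 168 CPM in the knockdown libraries, a rise of 2.39 ± 0.04 (edgeR adjusted p = 1.32e-16).

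Of 34 tested cytokine receptors 7 rose and 19 fell, with a median of -0.38 and 10 (29.4%) at least 2-fold lower. Il11ra1, the receptor subunit for interleukin 11, was at 7.63, 7.67 and 6.77 CPM in the scramble libraries and 1.56, 1.40 and 1.54 CPM in the knockdown libraries, a log2 change of -2.29 ± 0.11 (edgeR adjusted p = 5.27e-11). Il1rap, the shared coreceptor of the interleukin 1 family, fell by 1.55 ± 0.10, from 21.9 ± 3.06 to 7.45 ± 0.658 CPM. Il1rl1, the interleukin 33 receptor that pairs with Il1rap, was at 7.16, 8.28 and 9.52 CPM in the scramble libraries and 37.0, 36.5 and 42.0 CPM in the knockdown libraries, a rise of 2.20 ± 0.08 (edgeR adjusted p = 2.13e-12). The 2 subunits of that receptor thus changed in opposite directions. Il15ra fell by 1.20 ± 0.08, beside a fall of its ligand Il15 by 1.82 ± 0.17. Procr, the endothelial protein C receptor, was at 112, 115 and 116 CPM in the scramble libraries and 0.0250, 0.0255 and 0 CPM in the knockdown libraries, one of the largest falls among genes of at least 5 CPM (log2 change -12.57 ± 0.13).

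In the Notch pathway, where cleaved receptors act through Rbpj and Maml coactivators on Hes and Hey repressors, 7 of 20 tested genes rose and 4 fell. The share called, 55%, was near the 57.5% of all tested genes. Notch1 was at 0.464, 0.807 and 0.492 CPM in the scramble libraries and 7.36, 5.81 and 6.91 CPM in the knockdown libraries, a rise of 3.49 ± 0.18 (edgeR adjusted p = 6.04e-11), while Notch4 was at 15.7, 15.6 and 14.3 CPM in the scramble libraries and 3.45, 3.15 and 2.67 CPM in the knockdown libraries, a log2 change of -2.30 ± 0.17 (edgeR adjusted p = 6.03e-08). The coactivator Maml2 fell by 1.05 ± 0.07. Hey2, described above, was the largest change of the list. Of 29 Wnt pathway genes 13 rose and 9 fell, with 3 at least 2-fold higher and 6 at least 2-fold lower. Lgr6, a receptor for R-spondins, was at 27.1, 28.6 and 24.2 CPM in the scramble libraries and 0.250, 0.191 and 0.386 CPM in the knockdown libraries, a log2 change of -6.60 ± 0.17 (edgeR adjusted p = 1.12e-14), second in the list to Nkd1. Wnt7a, a ligand, rose by 1.86 ± 0.16, from 0.965 ± 0.0280 to 3.49 ± 0.345 CPM, and the receptor Fzd4 fell by 1.46 ± 0.11. Of 14 receptors and coreceptors for TGF-beta and BMP 6 rose and 3 fell, none of them at least 2-fold lower, and Rgmb, a BMP coreceptor, was the only one at least 2-fold higher, with a rise of 1.00 ± 0.05 (neighbours 0.36). Eng, endoglin, fell by 0.79 ± 0.15.

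Among 14 tested adhesion G protein coupled receptors 6 rose and 5 fell, 4 at least 2-fold higher and 3 at least 2-fold lower. Adgrl3, a latrophilin, was at 1.62, 1.97 and 2.21 CPM in the scramble libraries and 116, 131 and 129.9 CPM in the knockdown libraries, a rise of 6.01 ± 0.09 (edgeR adjusted p = 6.86e-17), and Adgrg1 rose by 2.28 ± 0.18. Mrc2, an endocytic collagen receptor, was at 1.89, 1.50 and 1.32 CPM in the scramble libraries and 186, 171 and 168 CPM in the knockdown libraries, a rise of 6.82 ± 0.09 (edgeR adjusted p = 2.03e-17). Arrb1, the receptor adaptor beta-arrestin 1, went from 0.0176 ± 0.0203 to 12.6 ± 2.34 CPM. Of 17 integrins 8 rose and 6 fell. Itgb4, the partner of Itga6 in hemidesmosomes, was at 29.2, 26.4 and 24.6 CPM in the scramble libraries and 105, 92.2 and 94.1 CPM in the knockdown libraries, a rise of 1.86 ± 0.06 (edgeR adjusted p = 4.27e-13), Itgb5 rose by 1.00 ± 0.05, and Itgb2, better known from leukocytes, fell by 0.90 ± 0.04 in a stretch with a neighbours' median of -0.64. Cd34, a sialomucin of the cell surface, was at 541, 545 and 555 CPM in the scramble libraries and 89.1, 89.8 and 91.4 CPM in the knockdown libraries, a log2 change of -2.60 ± 0.03 (edgeR adjusted p = 9.22e-18, neighbours -0.61). The arms did not overlap at any of the genes given here by library, which were chosen for large changes. Over all tested genes 63.6% had no overlap.

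Cell adhesion and channel genes followed the same mixed pattern. Of 8 tested cadherins 2 rose and 5 fell: Cdh5, the endothelial cadherin, went from 4.36 ± 0.327 to 0.226 ± 0.0450 CPM and Cdh17 from 31.4 ± 1.09 to 3.33 ± 0.398 CPM. Of 50 tested protocadherins 28 rose and 10 fell, 16 at least 2-fold higher, with a median of 0.54. That count needs care, since the clustered protocadherins share exons that the counting may not resolve. A run of 46 genes that begins within their cluster, at Pcdhb10, had a median of 0.50. The run holds protocadherins of this list, so its median is not separate from their count. Outside the clusters, Pcdh18 was at 15.6, 16.8 and 15.8 CPM in the scramble libraries and 127, 125 and 130.0 CPM in the knockdown libraries, a rise of 2.98 ± 0.04, Pcdh19 rose by 2.71 ± 0.07, and Pcdh9 went from 4.41 ± 0.416 to 0.00886 ± 0.0154 CPM. Of 17 potassium channel genes 7 rose and 4 fell. Kcnk10, a potassium leak channel, rose by 4.93 ± 0.15 (neighbours 0.31) and Kcnf1 by 4.63 ± 0.10. The claudin list was balanced, 6 higher and 6 lower of 14, with 3 at least 2-fold each way, and was led among genes above 2 CPM by Cldn9, which rose by 1.64 ± 0.06, and Cxadr, which fell by 1.20 ± 0.04.

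**Figure D3:**
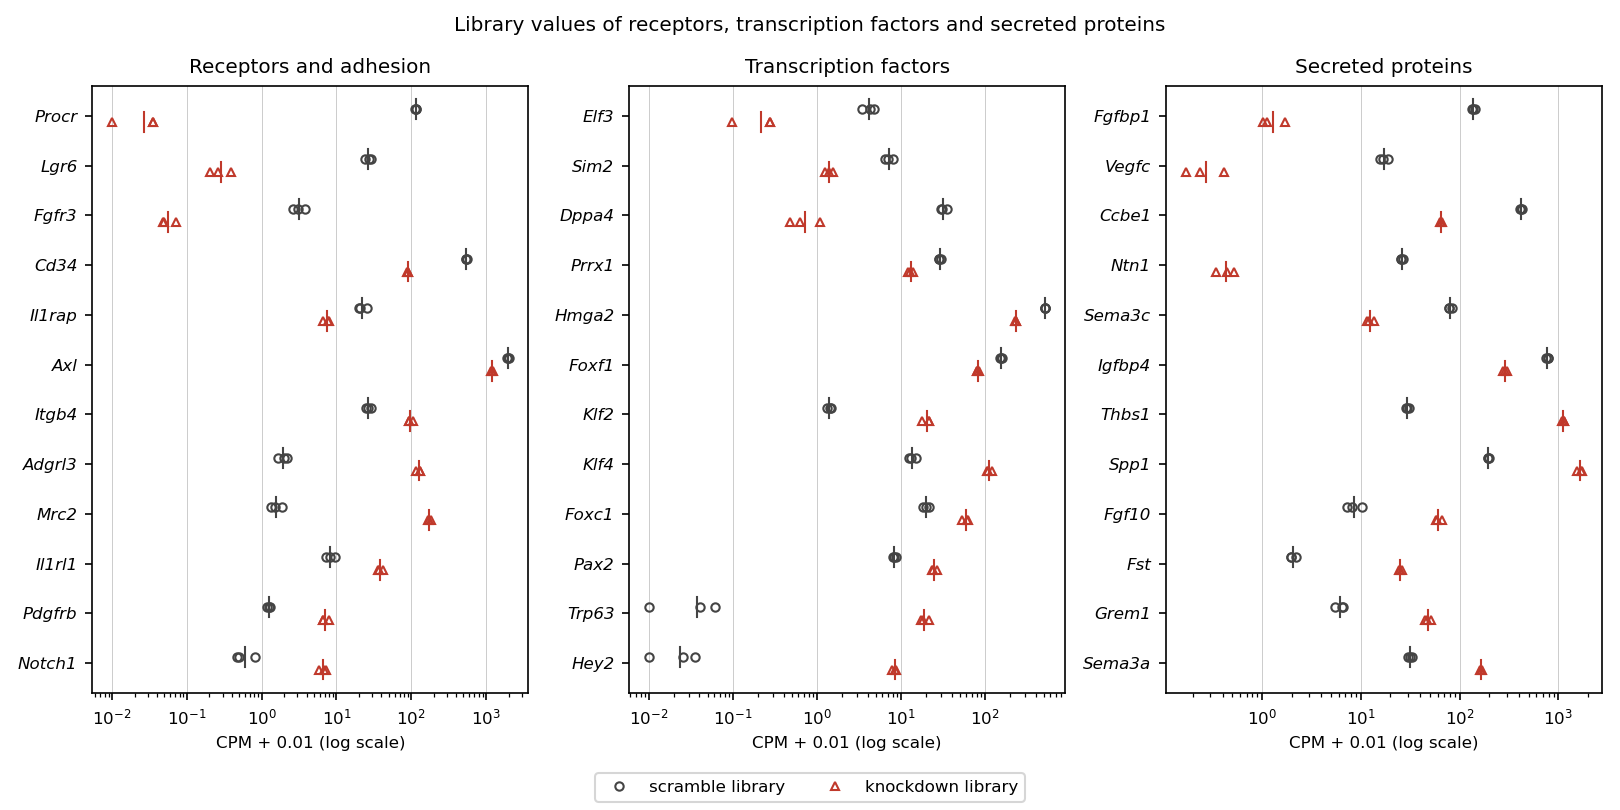
CPM + 0.01 (log scale) of 12 receptors and adhesion genes, 12 transcription factors and 12 secreted proteins in each scramble (grey circles) and knockdown (red triangles) library, with a bar at each mean. In each panel genes that fell stand above genes that rose, and the arms lie apart for every gene drawn, all chosen with their values known. The 3 libraries of an arm lie close together except at the lowest levels, such as Trp63 and Hey2 in scramble and Procr in knockdown libraries.

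Transcription factors were examined by family. The Krüppel-like and Sp factors leaned upward: 10 of 15 rose, 1 fell, 3 were at least 2-fold higher and none at least 2-fold lower (median 0.21). Klf2 was at 1.41, 1.31 and 1.46 CPM in the scramble libraries and 21.7, 18.0 and 21.8 CPM in the knockdown libraries, a rise of 3.88 ± 0.11 (edgeR adjusted p = 8.48e-14). Klf4, one of the reprogramming factors and a regulator of epithelial differentiation, was at 12.4, 13.0 and 15.2 CPM in the scramble libraries and 109, 107 and 120.0 CPM in the knockdown libraries, a rise of 3.05 ± 0.07 (edgeR adjusted p = 2.55e-14). Klf7 rose by 1.08 ± 0.05 and Klf3 by 0.96 ± 0.05, the last with a neighbours' median of 0.41. Trp63, the basal epithelial member of the p53 family, was at 0.0309, 0.0512 and 0 CPM in the scramble libraries and 17.0, 18.1 and 21.2 CPM in the knockdown libraries, a rise of 9.33 ± 0.22 (edgeR adjusted p = 4.15e-15). Trp53 itself fell by 0.21 ± 0.04, from 311 ± 8.67 to 269.9 ± 7.09 CPM. The ETS family leaned downward, with 9 of 17 lower and 1 higher, though only Elf3, an epithelial ETS factor, passed 2-fold, going from 4.11 ± 0.660 to 0.207 ± 0.104 CPM, and Ets2 fell by 0.51 ± 0.05. Of 21 GATA, RUNX, TEAD, NFI, TFAP2 and T-box factors 9 rose and 2 fell, with 52.4% called against 57.5% of all tested genes. Among them Tbx18 rose by 1.88 ± 0.17, Nfia by 1.19 ± 0.06, Tead3 by 0.96 ± 0.06 (neighbours 0.32) and Nfix by 0.93 ± 0.05.

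Homeobox genes were set beside shares of 27.7% higher and 29.9% lower over all tested genes. Of 22 tested Hox genes 3 rose and 8 fell, but 2 were at least 2-fold higher, both under 2 CPM, and 1 at least 2-fold lower. The falls were led among genes above 2 CPM by Hoxb13, down by 1.21 ± 0.19, and Hoxb9, down by 0.80 ± 0.06, while Hoxa3 rose by 0.63 ± 0.11. Of 45 other homeobox genes 15 rose and 18 fell, 3 at least 2-fold higher and 9 at least 2-fold lower. Dlx3 rose by 2.50 ± 0.16, Pax5 fell by 2.34 ± 0.21, Pou2f2 fell by 1.73 ± 0.16, and Pax2 was at 8.15, 8.59 and 7.97 CPM in the scramble libraries and 23.9, 23.1 and 27.1 CPM in the knockdown libraries, a rise of 1.58 ± 0.08 (edgeR adjusted p = 5.02e-11). A pair of paired-related genes that mark mesenchyme, singled out after their values were seen, moved apart: Prrx1 fell by 1.15 ± 0.07 and Prrx2 rose by 1.04 ± 0.07. Among 22 forkhead factors 8 rose and 8 fell, with Foxp2 up by 2.90 ± 0.19, Foxc1 up by 1.56 ± 0.07, Foxf2 up by 0.93 ± 0.09 and its relative Foxf1 down by 0.93 ± 0.04. The 29 helix-loop-helix and Id genes split 12 to 10. Sim2 fell by 2.38 ± 0.13, while Id2, an inhibitor of helix-loop-helix dimers, rose by 1.25 ± 0.06. Nuclear receptors split 11 higher to 8 lower of 30, with 63.3% called against 57.5% of all tested genes. Almost all changes were under 2-fold, with Thrb, a thyroid hormone receptor, up by 0.90 ± 0.09 and the oxysterol receptor Nr1h3 down by 0.95 ± 0.13.

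Chromatin and germline genes were read beside these. Of 46 genes of DNA methylation and Polycomb machinery 16 rose and 19 fell, and none was at least 2-fold higher. Dnmt3a, a de novo DNA methyltransferase, rose by 0.87 ± 0.07, from 28.5 ± 1.37 to 51.9 ± 2.72 CPM, and Tdg, a glycosylase that takes part in demethylation, fell by 0.80 ± 0.04 (neighbours -0.39). Of 31 germline and cancer-testis genes 8 rose and 14 fell. At least 2-fold lower were 13 (41.9%), against 9.36% of all tested genes. Dppa4, a pluripotency-associated chromatin protein, was at 30.6, 30.3 and 34.9 CPM in the scramble libraries and 0.462, 0.624 and 1.06 CPM in the knockdown libraries, a log2 change of -5.48 ± 0.16 (edgeR adjusted p = 1.9e-13). Its neighbour Dppa2, a partner in the same complex singled out after its values were seen, fell by 4.67 ± 0.18. Magea5 and Magea9 fell by 7.71 ± 0.47 and 6.78 ± 0.30, in a family of near-identical copies that may share reads. Of 19 imprinted genes 4 rose and 5 fell, with 47.4% called against 57.5% of all tested genes. Slc38a4 and Grb10 fell by 3.50 ± 0.39 and 1.87 ± 0.15, and Igf2r rose by 1.06 ± 0.11 (neighbours 0.50). Igf2r is overlapped on the opposite strand by Airn, whose reads may not be told apart from its own. Of 335 numbered Zfp genes 88 rose and 125 fell. At least 2-fold higher were 1.49% and at least 2-fold lower 8.06%, against 5.3% and 9.36% of all tested genes. The largest falls were log2 changes of -7.24 ± 0.53 for Zfp977 and -5.03 ± 0.29 for Zfp936, which lay in a stretch of chromosome 7 with neighbours' medians of -0.95 and -1.05. Hmga2, an architectural chromatin protein of embryonic cells, was at 518, 515 and 521 CPM in the scramble libraries and 233, 231 and 228 CPM in the knockdown libraries, a log2 change of -1.17 ± 0.04 (edgeR adjusted p = 1.73e-13), of which the neighbours' median of -0.54 is a large share in size.

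Secreted proteins of the matrix included some of the most abundant transcripts among the strongly changed genes. Of 32 tested matricellular proteins and proteoglycans 21 rose and 8 fell, with a median of 0.75 and 13 (40.6%) at least 2-fold higher against 5.3% of all tested genes. Thbs1, which encodes the matricellular thrombospondin 1, was at 29.7, 30.5 and 29.0 CPM in the scramble libraries and 1096, 1144 and 1128 CPM in the knockdown libraries, a rise of 5.24 ± 0.04 (edgeR adjusted p = 4.3e-20). Spp1, osteopontin, was at 196, 194 and 197 CPM in the scramble libraries and 1709, 1558 and 1740.5 CPM in the knockdown libraries, a rise of 3.09 ± 0.05 (edgeR adjusted p = 4.09e-17, neighbours 0.36). Ccn2, connective tissue growth factor, was at 29.1, 29.7 and 32.2 CPM in the scramble libraries and 208, 247 and 272 CPM in the knockdown libraries, a rise of 3.00 ± 0.09 (edgeR adjusted p = 5.22e-11), and Ogn, the proteoglycan osteoglycin, rose by 4.68 ± 0.09. All knockdown libraries stood above all scramble libraries for these 4 genes, which were chosen for their large changes. Collagens split instead, 10 higher and 12 lower of 30, with 7 and 8 at least 2-fold. Besides Col3a1, Col1a2 rose by 5.89 ± 0.23 and Col12a1 by 5.41 ± 0.32, and Col16a1 fell by 6.66 ± 0.44. Col6a5, an alpha chain of collagen VI, was at 463, 467 and 471 CPM in the scramble libraries and 95.6, 85.8 and 89.0 CPM in the knockdown libraries, a log2 change of -2.37 ± 0.04 (edgeR adjusted p = 3.1e-16).

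Metalloproteinases and their inhibitors fell more often than they rose. Of 40 tested, 10 rose and 23 fell, 18 (45%) at least 2-fold lower, with a median of -0.92. Mmp24, a membrane-type enzyme, was at 80.9, 78.9 and 72.9 CPM in the scramble libraries and 0.824, 0.701 and 1.04 CPM in the knockdown libraries, a log2 change of -6.51 ± 0.10 (edgeR adjusted p = 1.81e-17). Adam3 fell by 4.35 ± 0.32 and Adam22 fell by 3.66 ± 0.16 (neighbours of Adam22 0.31), and Adam19 rose by 4.03 ± 0.19. Mmp9, the gelatinase, and Adamts7 and Adamts14, picked after their values were seen, fell by 3.44 ± 0.11, 2.83 ± 0.08 and 2.30 ± 0.07. The 18 laminins and other basement membrane proteins leaned the same way, with 5 higher and 10 lower: Lamb3 fell by 2.83 ± 0.11 (neighbours -0.61), Lamb2 by 1.30 ± 0.07 and Sparc by 0.90 ± 0.04. Serpins, which inhibit serine proteases, split 9 to 9 of 25, nearly all past 2-fold, and Serpinb9b was at 123, 129 and 122 CPM in the scramble libraries and 10.3, 10.7 and 11.0 CPM in the knockdown libraries, a log2 change of -3.55 ± 0.05 (edgeR adjusted p = 9.22e-18), in a cluster of similar genes. Spint2, a membrane-bound Kunitz inhibitor of matriptase-like proteases, was at 0.0619, 0.0256 and 0 CPM in the scramble libraries and 16.7, 14.4 and 17.2 CPM in the knockdown libraries, a rise of 9.11 ± 0.22 (edgeR adjusted p = 8.53e-15) against a neighbours' median of -0.48.

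**Figure D4:**
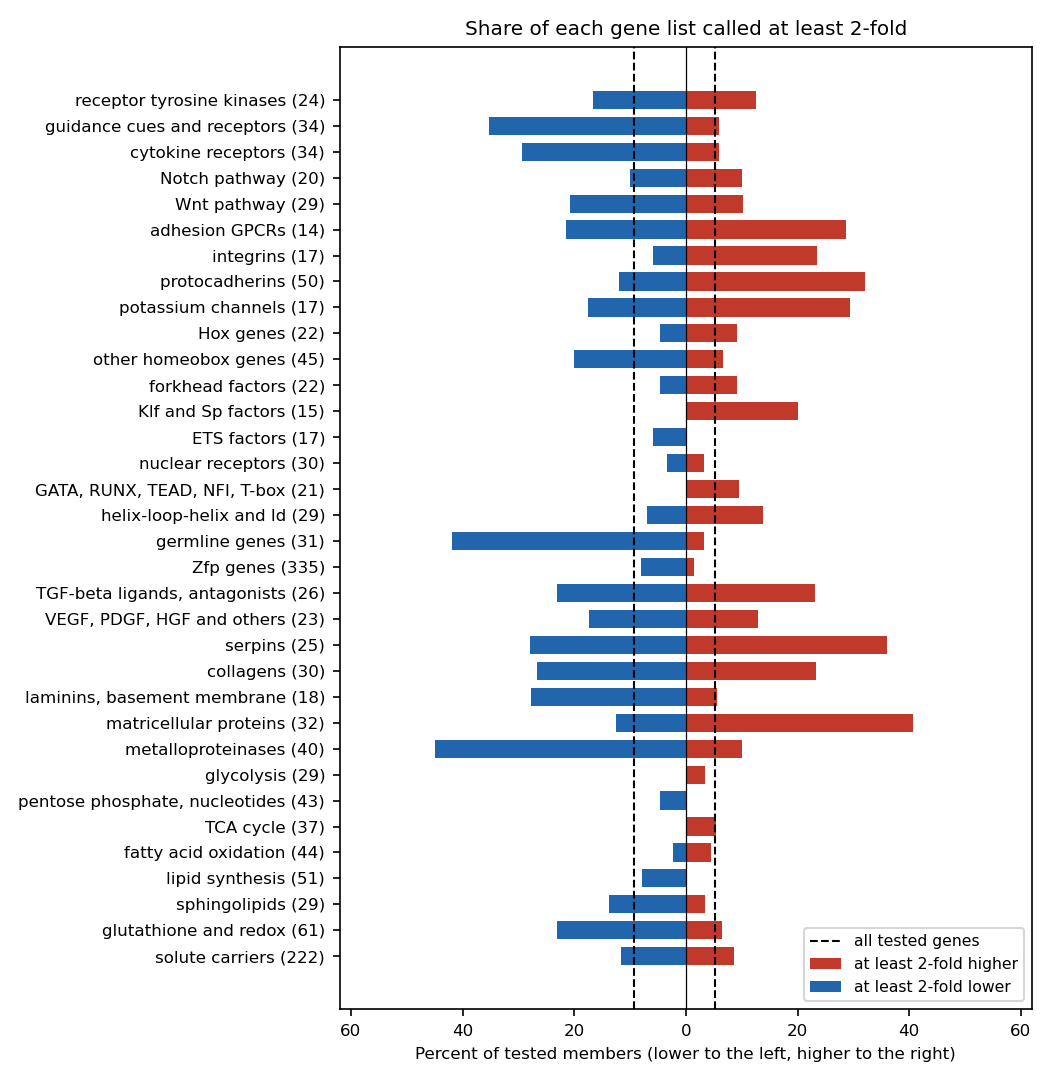
Percent of tested members of each gene list called at least 2-fold higher (red, to the right) or at least 2-fold lower (blue, to the left) in knockdown cells, with the number tested in parentheses. Dashed lines mark the shares over all tested genes, 5.3% and 9.36%. Metalloproteinases, germline genes, guidance genes and cytokine receptors extend furthest to the left among lists of more than 20 genes, and matricellular proteins, serpins and protocadherins to the right.

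Growth factors and their binding proteins included several large changes. Fgfbp1, a carrier that releases fibroblast growth factors from the matrix, was at 136, 134 and 144 CPM in the scramble libraries and 1.11, 1.02 and 1.72 CPM in the knockdown libraries, a log2 change of -6.75 ± 0.11 (edgeR adjusted p = 3.71e-16). The ligands Fgf10 and Fgf7 rose by 2.82 ± 0.09 and 1.56 ± 0.17, Fgf10 from 7.27, 8.14 and 10.3 CPM to 57.7, 59.3 and 65.9 CPM. Of 8 tested genes of that list 5 rose and 2 fell. Vegfc, the main growth factor of lymphatic vessels, was at 16.6, 15.8 and 18.9 CPM in the scramble libraries and 0.400, 0.229 and 0.160 CPM in the knockdown libraries, a log2 change of -6.00 ± 0.17 (edgeR adjusted p = 5.48e-14). Ccbe1, which is needed for the processing of Vegfc protein, was at 413, 428 and 418 CPM in the scramble libraries and 63.5, 66.0 and 65.3 CPM in the knockdown libraries, a log2 change of -2.69 ± 0.04 (edgeR adjusted p = 1.09e-17). Both genes of that axis were thus lower in every knockdown library, and both were named for the size of their change. Mst1 fell by 1.43 ± 0.08 and Kitl, the ligand of Kit, by 1.03 ± 0.05 (neighbours -0.71), while Pdgfb rose by 1.36 ± 0.20. Among EGF family ligands Areg, amphiregulin, was at 13.8, 13.4 and 14.7 CPM in the scramble libraries and 52.3, 50.3 and 50.5 CPM in the knockdown libraries, a rise of 1.87 ± 0.06 (edgeR adjusted p = 2.94e-13).

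Of 26 TGF-beta superfamily ligands and antagonists 8 rose and 11 fell, 6 at least 2-fold each way. Fst, follistatin, which binds activins, was at 1.96, 1.95 and 2.23 CPM in the scramble libraries and 25.2, 26.2 and 24.4 CPM in the knockdown libraries, a rise of 3.62 ± 0.08 (edgeR adjusted p = 4.11e-15). Grem1, a BMP antagonist, was at 5.52, 6.52 and 6.62 CPM in the scramble libraries and 44.7, 47.1 and 51.6 CPM in the knockdown libraries, a rise of 2.94 ± 0.07 (edgeR adjusted p = 6.66e-15). Nbl1, another antagonist of the same family, fell by 3.59 ± 0.23, and the ligand Gdf5 rose by 3.59 ± 0.20. The antagonists therefore did not move as one. Latent TGF-beta binding proteins moved apart as well: Ltbp4 was at 268, 270.1 and 256 CPM in the scramble libraries and 79.9, 74.3 and 74.6 CPM in the knockdown libraries, a log2 change of -1.80 ± 0.05 (edgeR adjusted p = 4.78e-14), and Ltbp1, chosen after its values were seen, rose by 1.56 ± 0.04 (neighbours 0.48). All 8 tested genes of the insulin-like growth factor binding list were called, 5 higher and 3 lower. Pappa2, a protease of these carriers, went from 0.0266 ± 0.0460 to 2.11 ± 0.224 CPM, and Igfbp4 was at 779.7, 788 and 752 CPM in the scramble libraries and 288, 275 and 301 CPM in the knockdown libraries, a log2 change of -1.42 ± 0.04 (edgeR adjusted p = 1.01e-13). Of 33 interleukins and other cytokines 6 rose and 11 fell, with 51.5% called against 57.5% of all tested genes. Those that fell included, besides Il15, Il34 by 1.66 ± 0.10 and Il11 by 1.31 ± 0.25. Of 13 S100 genes 6 rose and 2 fell, with S100a3 up by 2.47 ± 0.22 and S100a6 going from 678 ± 26.7 to 1437 ± 64.3 CPM. Further secreted proteins that fell were the prolactin relative Prl2c3, by 1.56 ± 0.06, whose reads may be shared with near-identical copies, and the kallikrein Klk10, by 1.62 ± 0.05 with a neighbours' median of -0.74. Cst3, the protease inhibitor cystatin C, rose by 1.02 ± 0.04.

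Metabolic genes were examined by pathway. Of 61 tested genes of glutathione and redox enzymes 18 rose and 33 fell, 14 (23%) at least 2-fold lower, with a median of -0.17. Slc7a11, the cystine importer that supplies glutathione synthesis, was at 128, 135 and 143 CPM in the scramble libraries and 29.4, 28.0 and 31.9 CPM in the knockdown libraries, a log2 change of -2.19 ± 0.05 (edgeR adjusted p = 7.03e-15). Txnrd1, thioredoxin reductase, was at 869, 890.0 and 934 CPM in the scramble libraries and 337, 346 and 357 CPM in the knockdown libraries, a log2 change of -1.37 ± 0.04 (edgeR adjusted p = 7.29e-14, neighbours -0.36). The glutathione transferase Gsta1 fell by 4.72 ± 0.14 and Gsta5 fell by 4.74 ± 0.19, both in a family whose copies may share reads. A further 4 genes of the list were looked up after its values were seen. Gpx4, the peroxidase of membrane lipids, fell by 0.89 ± 0.03 in a stretch with a neighbours' median of -0.62, Gclc, the catalytic subunit of glutathione synthesis, fell by 0.22 ± 0.04, its modifier subunit Gclm rose by 0.18 ± 0.05 (neighbours 0.46), and Hmox1, heme oxygenase, rose by 0.52 ± 0.12. The list thus held changes in both directions among genes of 1 pathway. In the other direction Sod3, the secreted superoxide dismutase, was at 2.24, 2.18 and 3.10 CPM in the scramble libraries and 60.0, 70.9 and 80.8 CPM in the knockdown libraries, a rise of 4.81 ± 0.15 (edgeR adjusted p = 8.79e-10, neighbours 0.33), and Nox4, an oxidase that makes hydrogen peroxide, was at 0, 0.0128 and 0 CPM in the scramble libraries and 3.68, 3.59 and 4.32 CPM in the knockdown libraries, a rise of 9.27 ± 0.39 (edgeR adjusted p = 5.91e-12).

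Glycolysis genes rose more often than they fell. Of 29 glycolysis and lactate genes 16 rose and 7 fell, 1 past 2-fold (median 0.21). That gene was Gbe1, the glycogen branching enzyme, at 177, 169 and 161 CPM in the scramble libraries and 518, 517 and 494 CPM in the knockdown libraries, a rise of 1.59 ± 0.06 (edgeR adjusted p = 4.96e-12). Pfkm and Eno3 fell by 0.99 ± 0.07 and 0.69 ± 0.05, and Pdk3, an inhibitory kinase of pyruvate dehydrogenase, rose by 0.75 ± 0.05. A pair of genes known to respond to low oxygen moved apart. Car9, a carbonic anhydrase of the cell surface, was at 221, 203 and 189 CPM in the scramble libraries and 530.0, 510.5 and 495 CPM in the knockdown libraries, a rise of 1.32 ± 0.06 (edgeR adjusted p = 1.88e-11), and Egln3, a prolyl hydroxylase that marks HIF-alpha, was at 565, 539.6 and 539 CPM in the scramble libraries and 143, 133 and 135 CPM in the knockdown libraries, a log2 change of -2.00 ± 0.06 (edgeR adjusted p = 2.55e-13). Of 37 genes of the tricarboxylic acid cycle and its feeding reactions 16 rose and 9 fell. Me2 and Me3, the mitochondrial malic enzymes, rose by 1.44 ± 0.05 and 2.29 ± 0.14, Me2 from 213 ± 14.8 to 576 ± 31.2 CPM. Of 22 serine, glycine and one-carbon genes 5 rose and 8 fell, with Phgdh and Psph up by 0.85 ± 0.04 (neighbours 0.43) and 0.82 ± 0.05, while Aldh1l1 fell by 2.12 ± 0.17. Ugdh, which makes UDP-glucuronic acid for glycosaminoglycans, rose by 1.40 ± 0.05 (neighbours 0.37), and Has2, the hyaluronan synthase that uses it, went from 0.0642 ± 0.0587 to 3.68 ± 0.702 CPM.

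**Figure D5:**
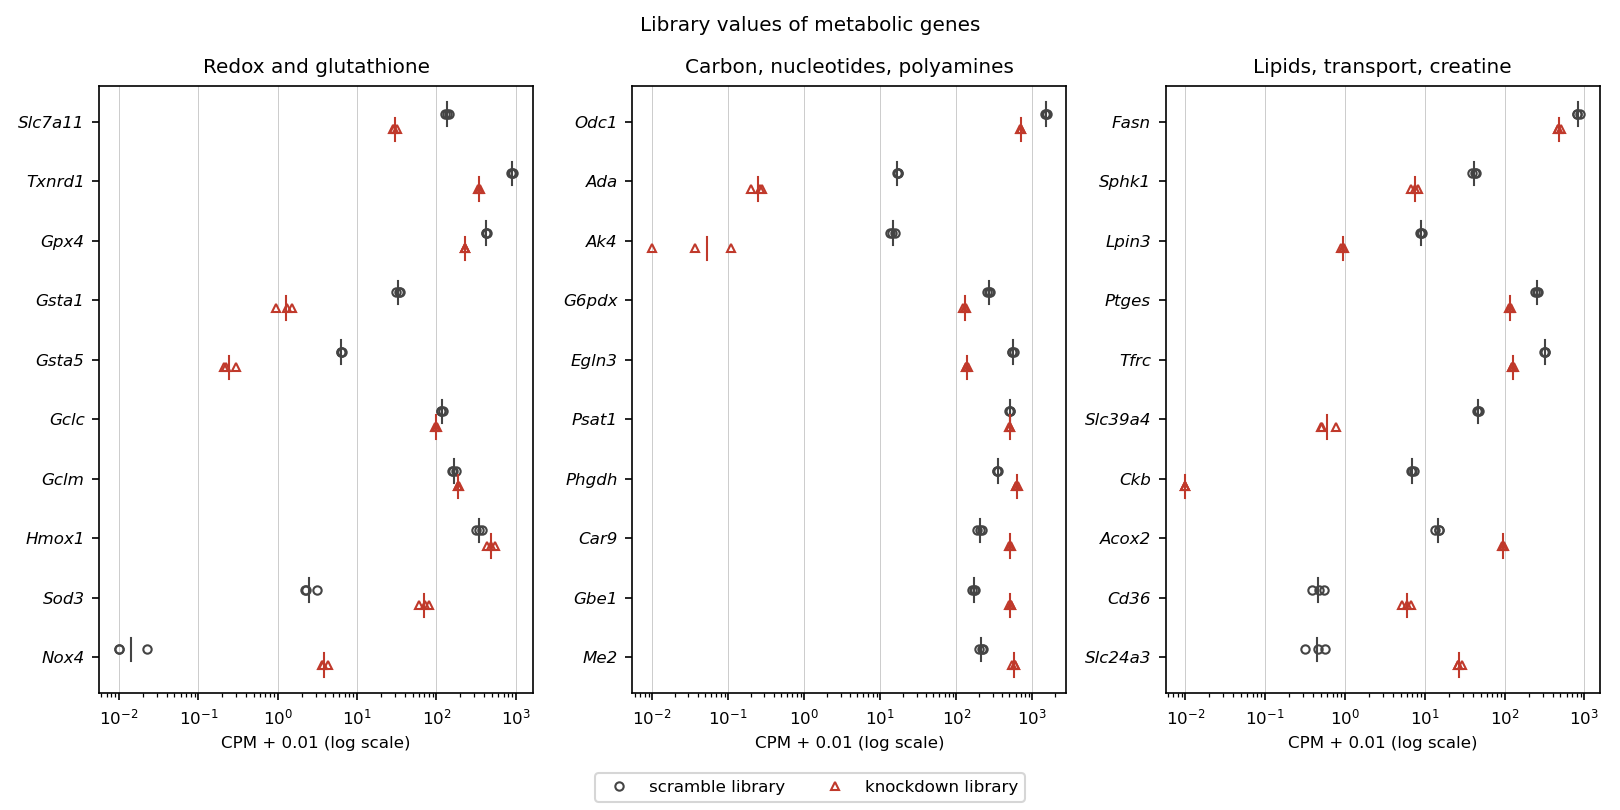
CPM + 0.01 (log scale) of 30 metabolic genes in each scramble (grey circles) and knockdown (red triangles) library, with a bar at each mean. Odc1, Txnrd1, Slc7a11 and Tfrc lie lower and Sod3, Acox2, Gbe1 and Car9 higher in all 3 knockdown libraries, and Psat1 overlaps between the arms.

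Nucleotide and polyamine genes included several of the largest metabolic falls. Odc1, the first enzyme of polyamine synthesis, was at 1526, 1544 and 1454 CPM in the scramble libraries and 703, 692 and 704 CPM in the knockdown libraries, a log2 change of -1.11 ± 0.04 (edgeR adjusted p = 7.26e-13). Ada, adenosine deaminase, was at 16.9, 16.5 and 17.0 CPM in the scramble libraries and 0.187, 0.268 and 0.253 CPM in the knockdown libraries, a log2 change of -6.15 ± 0.14 (edgeR adjusted p = 4.81e-15). Ak4, a mitochondrial adenylate kinase, went from 14.5 ± 1.17 to 0.0422 ± 0.0517 CPM, and G6pdx, which opens the pentose phosphate pathway, fell by 1.05 ± 0.05. Of 43 genes of the pentose phosphate pathway and nucleotide synthesis 18 rose and 19 fell, and Ada and G6pdx were the 2 at least 2-fold lower. Among 40 genes of amino acid synthesis and breakdown 14 rose and 18 fell, and Ivd, a dehydrogenase of leucine breakdown, rose by 1.08 ± 0.05. Of 5 tested creatine genes Ckb and Gatm, the latter named after its values were seen, fell and 3 were not called. In the serine route Psat1, looked up after its values were seen, differed by -0.01 ± 0.03 (edgeR adjusted p = 0.808).

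Lipid genes were read by function, beside shares of 27.7% higher and 29.9% lower over all tested genes. Of 44 genes of fatty acid oxidation and lipid storage 20 rose and 7 fell (median 0.21). Of 51 genes of fatty acid and phospholipid synthesis 15 rose and 24 fell (median -0.13). At least 2-fold higher were 4.55% and 0%, against 5.3% of all tested genes. At least 2-fold lower were 2.27% and 7.84%, against 9.36%. The difference between the lists was not tested. Acox2, a peroxisomal oxidase, was at 15.2, 13.6 and 15.2 CPM in the scramble libraries and 92.6, 98.0 and 96.9 CPM in the knockdown libraries, a rise of 2.71 ± 0.05 (edgeR adjusted p = 2.87e-16), the fatty acid receptor Cd36 went from 0.456 ± 0.0804 to 5.96 ± 0.797 CPM, and Hadh rose by 0.96 ± 0.04 (neighbours 0.43). The hormone-sensitive lipase gene Lipe fell by 1.17 ± 0.08. On the synthetic side Lpin3 fell by 3.26 ± 0.13, Plpp3 by 2.66 ± 0.15, Elovl4 by 1.44 ± 0.13 and Agpat3 fell by 1.35 ± 0.06 (neighbours -0.65), and Fasn, fatty acid synthase, looked up after its values were seen, fell by 0.80 ± 0.04. Of 29 sphingolipid and glycolipid genes 6 rose and 17 fell. Smpdl3b fell by 5.67 ± 0.20 and Cerk by 3.52 ± 0.28. Sphk1, which makes sphingosine 1-phosphate, was at 42.3, 39.6 and 43.8 CPM in the scramble libraries and 7.46, 6.74 and 8.31 CPM in the knockdown libraries, a log2 change of -2.48 ± 0.08 (edgeR adjusted p = 1.78e-13). Galc, galactosylceramidase, rose by 1.50 ± 0.04. Eicosanoid genes split 5 higher to 8 lower of 18: the prostaglandin synthases Ptgds and Ptges changed by 2.49 and -1.10, Ephx1 rose by 1.52 ± 0.08 and Ptgis fell by 1.22 ± 0.10.

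Transporters and metal handling were examined last. Of 222 tested solute carriers 67 rose and 81 fell. At least 2-fold higher were 19 and at least 2-fold lower 26, shares of 8.56% and 11.7% against 5.3% and 9.36% of all tested genes. Slc39a4, a zinc importer, was at 46.9, 48.5 and 45.4 CPM in the scramble libraries and 0.512, 0.765 and 0.492 CPM in the knockdown libraries, a log2 change of -6.31 ± 0.19 (edgeR adjusted p = 1.59e-11). Slc24a3, a potassium-dependent sodium and calcium exchanger, was at 0.449, 0.307 and 0.558 CPM in the scramble libraries and 25.9, 25.8 and 29.5 CPM in the knockdown libraries, a rise of 5.95 ± 0.12 (edgeR adjusted p = 1.1e-15). Among 26 amino acid transporters 6 rose and 12 fell, with Slc38a1, a glutamine carrier, up by 1.95 ± 0.07. Of 21 metal-handling genes 9 rose and 9 fell, led among genes above 2 CPM by Slc39a8, another metal importer, up by 1.42 ± 0.17 (neighbours 0.53). Tfrc, the transferrin receptor, was at 321, 320.0 and 314 CPM in the scramble libraries and 132, 123 and 123 CPM in the knockdown libraries, a log2 change of -1.34 ± 0.04 (edgeR adjusted p = 3.26e-13), and the iron exporter Slc40a1 fell by 1.10 ± 0.07. Lcn2, a siderophore-binding lipocalin, went from 7.98 ± 0.199 to 3.22 ± 0.715 CPM. Tfrc and Slc40a1, for iron entry and exit, were thus both lower in the knockdown cells.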

How the data were processed

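Messenger RNA of 66cl4 cells was sequenced in 9 libraries, 3 per arm. The deposited table holds raw counts, with a whole number for every gene symbol in every library and no scaling. The authors processed reads with FastQC, MultiQC and STAR on mm10, per the submitters' processing notes. Tool versions, read counter, annotation and strandedness: not given in the sources used here. Reads of overlapping or antisense genes, or of near-identical copies, may thus be mixed. Columns were matched to samples by arm and replicate number.

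Genes were kept by edgeR 4.0.16 filterByExpr (minimum count 10, total 15), and all 9 libraries were fitted by the robust quasi-likelihood test with TMM scaling (R 4.3.3). The 16766 tested genes shared one Benjamini-Hochberg adjustment of the p-values. The fit had 6 residual degrees of freedom and a common biological coefficient of variation of 5.26%. SE is the log2 change divided by the square root of F. Replicates differed by more than sampling noise (the chi-square over its degrees of freedom ran from 3.62 to 18.8). Floors and folds against 0 cover counting error only. Alternatives used DESeq2 1.42.0, limma 3.58.1 voom, other scalings and filters, and leaving out each replicate. The procedure was tested on simulated data.

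Positions are 1-based on GRCm38 from the GENCODE annotation, and 96.9% of tested genes had one. Promoters are RefSeq sequences (GRCm38.p6).

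The members and the gene lists were chosen with earlier results of these data known. Named genes were those of the Eya and Dach families and homeobox genes of the same network, up to 4 called genes of each list with the largest change and at least 2 CPM in an arm, the 15 rises and 15 falls with the largest change at 5 CPM or more, and the 15 each way with the largest CPM difference past 2-fold. Genes outside that rule are said to be chosen after their values were seen, apart from marker and quality genes. A few genes that the rule names are not reported here.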

Additional observations from a re-analysis of the deposited data

How the results depend on the processing

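The counts of called genes stayed within 1.5 times their main values under 14 alternatives, but for the 2-fold counts when genes needed at least 1 CPM in at least 3 libraries, which tested 12361 genes in place of 16766 and left 473 at least 2-fold higher and 871 at least 2-fold lower. Equal replicate numbers were not taken as pairs, since the labels do not say that they mark a shared culture. Deviations of same-numbered libraries correlated at 0.357, -0.047 and 0.336. Numbers 1 and 3 correlated best with their own number and number 2 did not, which does not settle whether the libraries were paired. With the replicate number as a block 10232 genes were called, 4951 higher and 5281 lower, and Six4 passed (edgeR adjusted p = 0.0391). Library totals as scaling moved the median of all genes to -0.05 and gave 4064 higher and 5592 lower, so 42.1% of calls were higher against 48.1%. Of the 78 lists, the Sox, DNA methylation and Polycomb, serine and one-carbon and metal-handling medians then changed sign, each within 0.05 of 0. The claudin median, at or just under 0, moved to -0.048. Eya3 ran from -1.38 to -1.30. Leaving out 1 library gave 8799 to 9275 called genes, 864 to 913 at least 2-fold higher and 1534 to 1622 at least 2-fold lower. Among the 229 genes named, 227 kept their call under every alternative that tested them, and the exceptions were Eya4 and Six4. Genes under about 1 CPM rest on few counts, and 8 of those named were not tested under the stricter filter.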

Other observations

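Several gene groups outside the functions above also changed. Of 29 tested sialyltransferases, fucosyltransferases and related glycan-synthesis genes 7 rose and 14 fell, with a median of -0.38 against -0.001 over all tested genes. Mgat3, which adds the bisecting residue of N-glycans, was at 0.170, 0.256 and 0.106 CPM in the scramble libraries and 4.55, 4.09 and 4.35 CPM in the knockdown libraries, a rise of 4.58 ± 0.19 (edgeR adjusted p = 5.33e-12). Gcnt2, which branches poly-lactosamine chains, was at 17.2, 17.3 and 14.4 CPM in the scramble libraries and 2.24, 2.36 and 2.35 CPM in the knockdown libraries, a log2 change of -2.82 ± 0.10 (edgeR adjusted p = 5.56e-13). Levels of these 2 glycan-synthesis genes, named for the size of their change, thus moved in opposite directions, without overlap between the arms. Among 42 genes of glycosaminoglycan synthesis, sulfation and related glycan enzymes 14 rose and 19 fell. Besides Has2, Ndst4, a heparan sulfate sulfotransferase, fell by 4.47 ± 0.15 (neighbours' median 0.40). Galnt15, a glycan enzyme of the list that does not make glycosaminoglycans, rose by 2.68 ± 0.13.

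Enzymes of small-molecule conversion were split. Of 45 aldehyde dehydrogenases, aldo-keto reductases and related reductases 17 rose and 19 fell, with Aldh1a7 up by 3.23 ± 0.21 and the carbonyl reductase Cbr2 up by 2.15 ± 0.15. Aldh3a1 was at 40.7, 43.3 and 39.4 CPM in the scramble libraries and 185, 179.7 and 179 CPM in the knockdown libraries, a rise of 2.14 ± 0.05 (edgeR adjusted p = 1.78e-15). Of 21 cytochromes P450 7 rose and 6 fell, and Cyp2c23 fell by 3.48 ± 0.13, while Cyp1b1, which metabolises polycyclic hydrocarbons, rose by 3.00 ± 0.21 (neighbours' median 0.48). Hspb7, a small heat shock protein known from muscle, was at 0.0155, 0.0384 and 0.106 CPM in the scramble libraries and 25.2, 23.9 and 25.2 CPM in the knockdown libraries, a rise of 8.77 ± 0.24 (edgeR adjusted p = 9.79e-14). Bche, butyrylcholinesterase, was at 10.0, 9.85 and 9.86 CPM in the scramble libraries and 0.0375, 0 and 0.0399 CPM in the knockdown libraries, a log2 change of -8.50 ± 0.26 (edgeR adjusted p = 1.26e-13).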
